A study of Mus musculus with 136 samples.

Results

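The genes described here belong to 2 hormone systems of the kidney. The renin-angiotensin genes were Ren1, Agt, Ace and Agtr1a, and the dopamine genes were Ddc, Maoa and Maob. Every probe annotated to these 7 genes was used, which gave 8 of the 25697 probes of the array and 6 of the 7 genes, since no probe was named for Ren1. The genes were picked by pathway with results of these same arrays known, so that their levels in the kidney are a description and the calls among them are no independent support for a choice of genes.

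In the renin-angiotensin system, renin from the juxtaglomerular cells of the kidney cuts angiotensinogen, the product of Agt, to angiotensin I. Angiotensin-converting enzyme, the product of Ace, turns this into angiotensin II, which acts through the type 1 receptor Agtr1a on vessels and on salt uptake in the tubules. The proximal tubule also makes dopamine of its own: Ddc encodes aromatic L-amino acid decarboxylase, the enzyme that forms dopamine from L-DOPA, and the monoamine oxidases Maoa and Maob degrade it. Renal dopamine favours salt loss, while angiotensin II favours salt retention.

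Gene expression was measured on Illumina MouseRef-8 arrays in kidney cortex, kidney medulla, liver, lung, spleen and thyroid of female nude mice of the BALB/c strain CAnN.Cg-Foxn1nu/Crl, which lack a functional thymus and, at 9 months, were all of one age. Mice received 90 kBq 131I or, as controls, physiological saline in the tail vein at 9:00, 12:00 or 15:00, and all tissues were taken 24 h later, so that injection and collection shared their clock time. Each of the 6 groups of a tissue held 3 or 4 mice, for a total of 130 samples on 136 arrays. The tissues came from the same mice and are not independent, and groups were kept in separate cages, so that cage and group cannot be told apart.

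Ddc was the member that the results turn on, and its promoters are shown because its level differed with the time of day. RefSeq gives the gene 2 starts on the minus strand of chromosome 11 (GRCm38.p6). The 250 bases before each start are printed 5′ to 3′, at chr11:11898145-11898394 for the upstream start and chr11:11890409-11890658 for the downstream start, with motif matches in capitals.
Ddc upstream start: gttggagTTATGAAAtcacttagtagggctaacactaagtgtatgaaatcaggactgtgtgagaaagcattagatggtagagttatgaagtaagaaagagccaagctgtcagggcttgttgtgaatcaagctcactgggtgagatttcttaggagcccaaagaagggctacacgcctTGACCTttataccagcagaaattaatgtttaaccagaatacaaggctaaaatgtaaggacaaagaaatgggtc
Ddc downstream start: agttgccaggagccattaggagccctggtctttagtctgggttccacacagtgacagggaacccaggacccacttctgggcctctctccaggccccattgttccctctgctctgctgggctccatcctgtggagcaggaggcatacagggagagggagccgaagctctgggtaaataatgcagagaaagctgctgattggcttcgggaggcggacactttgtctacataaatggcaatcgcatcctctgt
Both strands were searched for 3 motifs, chosen after the levels were seen. The pattern TTATGNAA, with any base at N, is a loose form of the D-box of the clock output factors of the PAR bZIP family. It occurred once in the upstream window, as TTATGAAA, 243 to 236 bases before the start, and in 3.07% of the 32851 promoter windows of that length. Whether these factors bind this form was not tested. The nuclear receptor half-site AGGTCA occurred once, 73 to 68 bases before the upstream start and on the opposite strand, and in 14% of all windows. The E-box CACGTG, bound by ARNTL with its partners, was in neither Ddc window and in 6.02% of all windows. A match is a stretch of letters and not a measured binding site.

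Across the arrays, between 34.7 and 51.9% of the probes were above background, taken as a detection p under 0.01. Kidney cortex and medulla carried tubule markers, liver its hepatocyte markers and lung its epithelial markers. The median level of proximal tubule markers was 10.20 in cortex and 9.92 in medulla. That of thick limb, distal tubule and collecting duct markers was 9.09 and 9.45, and that of papilla and urothelium markers 6.12 and 7.37. Cortex and medulla samples were thus not sharply separated by tubule markers. In the tissue labelled thyroid, 8 of the 10 follicular marker genes with a probe were at background on every array, Tg, Slc5a5, Pax8 and Foxe1 among them. The others, Tshr and Nkx2-1, were above background on some of these arrays but not on all. A lung library (saline 9:00, replicate 4) and a spleen library (131I 12:00, replicate 1) carried kidney genes. The mean log2 level of 18 proximal tubule markers was 9.16 in the lung library against 5.33 to 5.48 in the other lung samples, and 9.39 in the spleen library against 5.07 to 5.33 in the others. Umod, the uromodulin gene of the thick ascending limb, was at 14.3 and 14.6 in these libraries and at most at 5.16 and 4.95 in the remaining lung and spleen samples. Tissue levels that rest on them are given with and without them or beside the value of the library. No call on a member changed when both were left out.

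The members differed in whether the arrays could measure them at all. The single probe for Maoa was above background on 0 of 136 arrays. Agt, made mainly by the liver, was above background on all 23 liver arrays and on none in another tissue. The Ace probes ILMN_2613682 and ILMN_2613683 were above background on 15 and 16 of 22 lung arrays, on 1 and 3 of 23 medulla arrays and nowhere else. In the kidney the description therefore rests on Agtr1a, which was above background on all 136 arrays, on Ddc, which was above background on all 22 cortex and all 23 medulla arrays, and on Maob. The Maob probe ILMN_2719069 was above background on 22 of 22 cortex and 17 of 23 medulla arrays, while the second Maob probe, ILMN_1258219, was not above background on any kidney array. Values of Maob are for ILMN_2719069 unless the other probe is named. The renal levels say nothing about Ren1, Agt, Ace or Maoa beyond these limits.

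Ddc was lower at 15:00 than at 9:00 in both parts of the kidney and in the liver. In the kidney cortex of saline mice, the log2 levels of Ddc were 10.76, 10.74, 10.36 and 9.72 at 9:00. They were 9.16, 9.45 and 8.76 at 12:00, and 8.32, 8.58 and 8.97 at 15:00. Every 9:00 sample lay above every later one, while the samples of 12:00 and 15:00 overlapped. From 9:00 to 15:00 the level fell by 1.78 on the log2 scale (SE 0.27, adjusted p = 0.00578), a 3.42-fold difference with a 95% confidence interval of 2.31 to 5.08-fold. A probe was called where the Benjamini-Hochberg adjusted p of limma was under 0.01 over all probes tested in the tissue and the fold-change was at least 1.5. In this comparison 6 of 12776 probes (0.047%) were called, and Ddc was 1 of the 3 members tested and the third of all probes by p. Groups that do not overlap were found for 9.62% of all probes, and for 13.7% between 12:00 and 9:00. The other called probes were those of the clock gene Arntl (-2.65), the integrin gene Itgb6 (-1.48 and -1.42), Tnfaip2 (-1.35) and the clock gene Per2 (2.07).

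The same decrease was present in the cortex of mice that had received 131I. Ddc was at 10.66, 10.15, 10.63 and 10.55 at 9:00. It was at 9.14, 10.22, 9.99 and 9.00 at 12:00, and at 8.88, 9.16, 8.60 and 8.69 at 15:00. The 9:00 and 15:00 samples were again apart, and the 12:00 samples spanned the gap between them. The level fell by 1.66 (SE 0.25, adjusted p = 0.00300) from 9:00 to 15:00, or 3.16-fold (95% confidence interval 2.20 to 4.56). Here 9 probes (0.0704%) were called and 6.57% had groups that do not overlap, with Arntl (-2.59) and 2 probes of Per2 (2.33 and 2.03) among them. With only the 2 groups compared in the fit, the saline cortex call was lost (-1.78, adjusted p = 0.0548). Leaving out 1 library ended either cortex call in several cases. The saline call was lost without saline 9:00 replicate 1, 2 or 3, saline 12:00 replicate 1 or saline 15:00 replicate 1 or 2 (-1.62 to -1.79, adjusted p 0.0101 to 0.0372). The call in 131I mice was lost without 131I 9:00 replicate 1, 3 or 4 or 131I 15:00 replicate 1, 3 or 4 (-1.59 to -1.68, adjusted p 0.0128 to 0.0231).

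**Figure D1:**
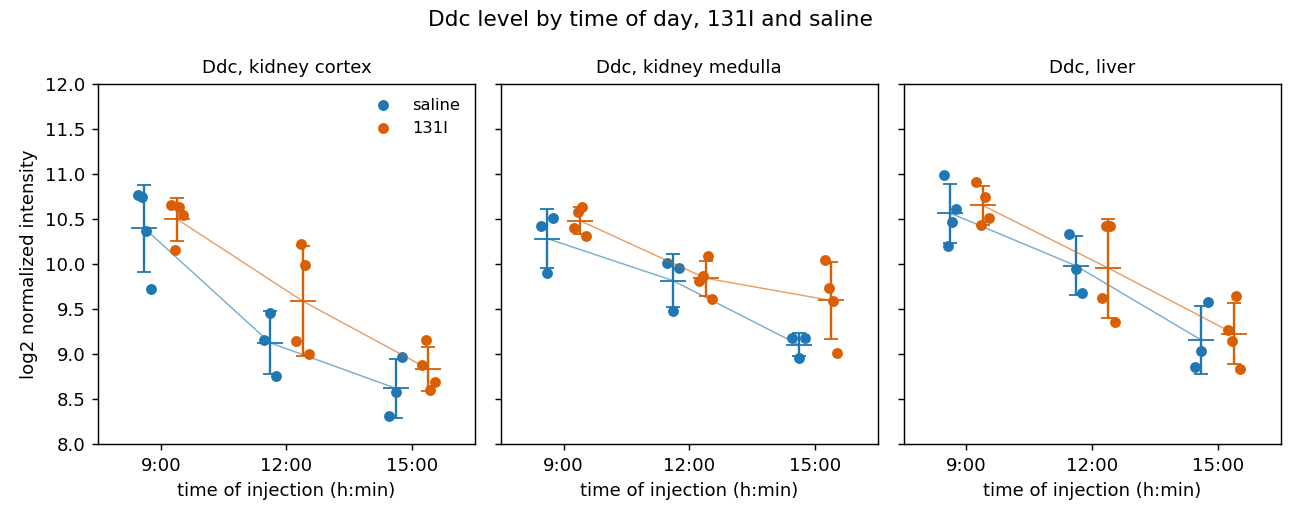
Log2 level of Ddc (y axis, background-corrected intensity normalized within each tissue) against the clock time of injection and collection (x axis, h) in kidney cortex, kidney medulla and liver, with 1 point per mouse, filled where the probe was above background, and the group means with their SD joined for saline and 131I. In saline cortex the 9:00 samples sit between 9.72 and 10.76 and the 15:00 samples between 8.32 and 8.97.

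In the kidney medulla of saline mice, Ddc was at 10.42, 9.90 and 10.51 at 9:00. It was at 10.01, 9.48 and 9.96 at 12:00, and at 9.17, 8.96 and 9.18 at 15:00. The 15:00 samples lay below all earlier ones, and between 15:00 and 12:00 the groups did not overlap for 14.2% of all probes. The level fell by 1.18 from 9:00 to 15:00 (SE 0.21, adjusted p = 0.00748), which is 2.26-fold (95% confidence interval 1.68 to 3.04), in a comparison with 21 of 13247 probes called (0.159%) and 13.4% with groups that do not overlap. Scaling the arrays by their medians ended this call (-1.13, adjusted p = 0.0426), and so did a fit of only the 2 groups compared (-1.18, adjusted p = 0.0654).

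In the medulla of 131I mice the values at 9:00 were 10.40, 10.58, 10.63 and 10.31. At 12:00 they were 9.81, 9.87, 10.08 and 9.61, and at 15:00 they were 10.05, 9.73, 9.59 and 9.01. Both later groups lay below the 9:00 group and overlapped each other. Between 12:00 and 9:00, 4.7% of all probes had groups that do not overlap. The difference of -0.89 between 15:00 and 9:00 did not pass the threshold (SE 0.18, adjusted p = 0.0241), where 21 probes (0.159%) did and 7.14% had groups that do not overlap. With the replicate number as a block, the adjusted p for this difference was 0.00414. Samples of one number in different groups of a tissue are different mice, so that the number is no pairing and this value adds no support.

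Single libraries decided the medulla calls as well. The call in saline mice was lost in 12 of the fits that left out a sample: without saline 9:00 replicate 1 or 3, saline 12:00 replicate 3, saline 15:00 replicate 1, 2 or 3, 131I 9:00 replicate 2 or 3, 131I 12:00 replicate 1 or 2, or 131I 15:00 replicate 2 or 3 (-1.06 to -1.22, adjusted p 0.0101 to 0.0580). Without 131I 15:00 replicate 1, the sample at 10.05, the difference in 131I mice was called (-1.04, adjusted p = 0.00946).

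Ddc followed the same course in the liver, an organ in which this decarboxylase is also abundant. In saline mice it was at 10.98, 10.20, 10.47 and 10.61 at 9:00. It was at 10.33, 9.94 and 9.67 at 12:00, and at 8.85, 9.04 and 9.58 at 15:00. The 15:00 samples were below all others, and between 15:00 and 12:00 the groups did not overlap for 21.1% of all probes. The level fell by 1.41 from 9:00 to 15:00 (SE 0.25, adjusted p = 0.00107), or 2.65-fold (95% confidence interval 1.85 to 3.81), where 333 of 11564 probes were called (2.88%) and 16.8% had groups that do not overlap. Without saline 15:00 replicate 1 the adjusted p was 0.0103 and the difference -1.26.

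In the livers of 131I mice Ddc was at 10.91, 10.44, 10.75 and 10.51 at 9:00. It was at 9.62, 10.42, 10.42 and 9.36 at 12:00, and at 9.27, 9.15, 9.65 and 8.84 at 15:00. The 9:00 samples lay above all later ones, by a narrow margin at 12:00, where 3.53% of all probes had groups that do not overlap. From 9:00 to 15:00 the level fell by 1.42 (SE 0.23, adjusted p = 0.000888), or 2.68-fold (95% confidence interval 1.92 to 3.75). In that comparison 101 probes were called (0.873%) and 7.49% had groups that do not overlap. The liver, with many probes called, gave Ddc place 135 by p in saline and 48 in 131I mice. In the cortex it was the third and the sixth probe, and in the medulla it had places 18 and 33.

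The decrease was already partly visible at 12:00 but passed no test there. Relative to 9:00, Ddc at 12:00 differed by -1.27 in saline cortex (adjusted p = 0.0352) and by -0.91 in 131I cortex (adjusted p = 0.626), where 0.0783% and 0% of all probes were called. In medulla the values were -0.47 (adjusted p = 0.50) and -0.64 (adjusted p = 0.399), with 0.0151% and 0% called. In liver they were -0.58 (adjusted p = 0.241) and -0.70 (adjusted p = 0.473), with 2.03% and 0.0778% called. From 12:00 to 15:00 the differences lay between -0.25 and -0.83 in these 3 tissues, and none was called, where the saline comparison called 0.196% of all probes in cortex, 0% in medulla and 1.75% in liver and the 131I comparison 0% in each. On the linear scale, the intensities as the authors normalized them had the same order, with 1433 ± 396 at 9:00, 642 ± 127 at 12:00 and 481 ± 88.6 at 15:00 in saline cortex (SD, n = 4, 3 and 3). Before normalization the means were 1551, 704 and 390.

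Ddc is a gene of the proximal tubule in the kidney, and the markers of that segment are given beside its change. None of the 16 proximal tubule markers tested was called between 15:00 and 9:00 in cortex or medulla, with 2 in saline cortex, 4 in 131I cortex, 3 in saline medulla and 5 in 131I medulla at an unadjusted p under 0.05. Of all probes, 0.047, 0.0704, 0.159 and 0.159% were called, so that the absence of calls does not show stable markers. The unadjusted p was under 0.05 for 1267 and 1913 of 12776 probes in cortex and 1220 and 1549 of 13247 in medulla. The median difference of the markers was -0.08 in saline cortex, -0.30 in 131I cortex, 0.20 in saline medulla and -0.34 in 131I medulla. Their mean level in saline cortex ranged from 10.9 to 11.3 at 9:00 and from 10.5 to 11.0 at 15:00. The group means at 9:00 and 15:00 were 11.13 and 10.67 in saline cortex and 10.99 and 10.57 in 131I cortex. In medulla they were 10.54 and 10.53 with saline and 11.09 and 10.74 with 131I. In the liver none of the 8 hepatocyte markers was called in either treatment, with 0 at an unadjusted p under 0.05 and medians of -0.02 and 0.05. There 2.88% of all probes were called in saline and 0.873% in 131I mice. The part of cell composition in the change of Ddc was not tested, and in tissue samples fewer cells of a type and less RNA per cell cannot be told apart.

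No difference in Ddc between 131I and saline was called. Averaged over the 3 times, Ddc in 131I mice differed from saline mice by 0.26 in cortex (95% confidence interval -0.06 to 0.58, adjusted p = 0.599). In medulla the difference was 0.24 (0.01 to 0.47, adjusted p = 0.162), and in liver it was 0.04 (-0.25 to 0.34, adjusted p = 0.950), where 0.147% of all probes were called. At the single times, in the order of the clock, the cortex differences were 0.10, 0.46 and 0.21, and the medulla differences were 0.20, 0.03 and 0.49. The change from 9:00 to 15:00 was tested between treatments as an interaction, since a call in saline and none in 131I medulla does not show a difference. It differed by 0.11 in cortex, 0.29 in medulla and -0.01 in liver (adjusted p of the F test over the times 0.986, 0.575 and 0.977), where 0.00783%, 0% and 0.545% of all probes passed. These comparisons share samples with those between times.

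Agtr1a, the receptor of the renin-angiotensin system, was measured in every sample and had a smaller range. In saline cortex it was at 9.86, 9.93, 9.96 and 9.71 at 9:00. It was at 9.29, 9.65 and 9.42 at 12:00, and at 9.05, 9.57 and 9.78 at 15:00. The 12:00 samples were all below the 9:00 samples, and the 15:00 samples overlapped them. The differences from 9:00 were -0.41 at 12:00 (adjusted p = 0.250) and -0.40 at 15:00 (adjusted p = 0.389), neither of which passed the threshold. Groups that do not overlap were found for 13.7% of all probes between 12:00 and 9:00 in saline cortex. In 131I cortex Agtr1a was at 9.95, 9.70, 9.78 and 9.65 at 9:00. It was at 9.53, 9.70, 9.68 and 9.61 at 12:00, and at 9.68, 9.68, 9.14 and 9.18 at 15:00. These groups overlapped, with a difference of -0.35 between 15:00 and 9:00 (adjusted p = 0.258). A paralogous gene, Agtr1b, has a probe of its own that was at background on every kidney array, and whether the Agtr1a probe also binds its transcript was not tested.

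In saline medulla Agtr1a was at 9.88, 9.10 and 9.68 at 9:00, at 9.41, 9.22 and 9.19 at 12:00, and at 9.15, 9.32 and 9.49 at 15:00. In 131I medulla it was at 9.69, 9.76, 9.75 and 9.67 at 9:00, at 9.94, 9.76, 9.50 and 9.57 at 12:00, and at 9.70, 9.34, 9.32 and 9.43 at 15:00. At 12:00 the 131I samples lay above all saline samples, and at 9:00 and 15:00 the treatments overlapped. The difference at 12:00 was 0.42 (SE 0.15, adjusted p = 0.0653), and the mean over the 3 times was 0.24 (95% confidence interval 0.06 to 0.42, adjusted p = 0.0720). Neither was called, at a time when 563 of 13247 probes (4.25%) were called and 23.4% had groups that do not overlap.

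Maob, the monoamine oxidase that prefers phenylethylamine, was close to background in the kidney. In saline cortex it was at 6.08, 5.33, 5.88 and 5.64 at 9:00, at 6.22, 6.64 and 6.04 at 12:00, and at 6.15, 6.25 and 6.67 at 15:00. The 9:00 samples were below the 15:00 samples, with a difference of 0.63 that was not called (adjusted p = 0.447), where 9.62% of all probes had groups that do not overlap. The difference was 0.25 in the deposited normalized values and 0.26 without background correction. In 131I cortex it was at 5.51, 6.23, 6.11 and 5.92 at 9:00, at 5.45, 6.74, 5.78 and 6.20 at 12:00, and at 5.52, 6.26, 5.70 and 6.37 at 15:00. These 3 groups covered the same range.

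In saline medulla Maob was at 5.52, 4.97 and 4.93 at 9:00, at 5.57, 5.65 and 5.66 at 12:00, and at 5.18, 6.54 and 4.85 at 15:00. In 131I medulla it was at 6.32, 6.15, 5.86 and 5.92 at 9:00, at 5.57, 5.72, 6.01 and 6.41 at 12:00, and at 5.61, 6.04, 5.42 and 5.50 at 15:00. At 9:00 every 131I sample was above every saline sample, of which 1 of 3 was above background, and at 15:00 the treatments overlapped. The difference at 9:00 was 0.92 (SE 0.29, adjusted p = 0.0829), and 16.2% of all probes had groups that do not overlap. The mean over the times was 0.44 (95% confidence interval 0.09 to 0.79, adjusted p = 0.0823). In the deposited normalized values these differences were 0.27 and 0.13, and without background correction 0.31 and 0.15. Without the saline 15:00 sample at 6.54, replicate 2, it was 0.61 and was called (adjusted p = 0.00329).

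**Figure D2:**
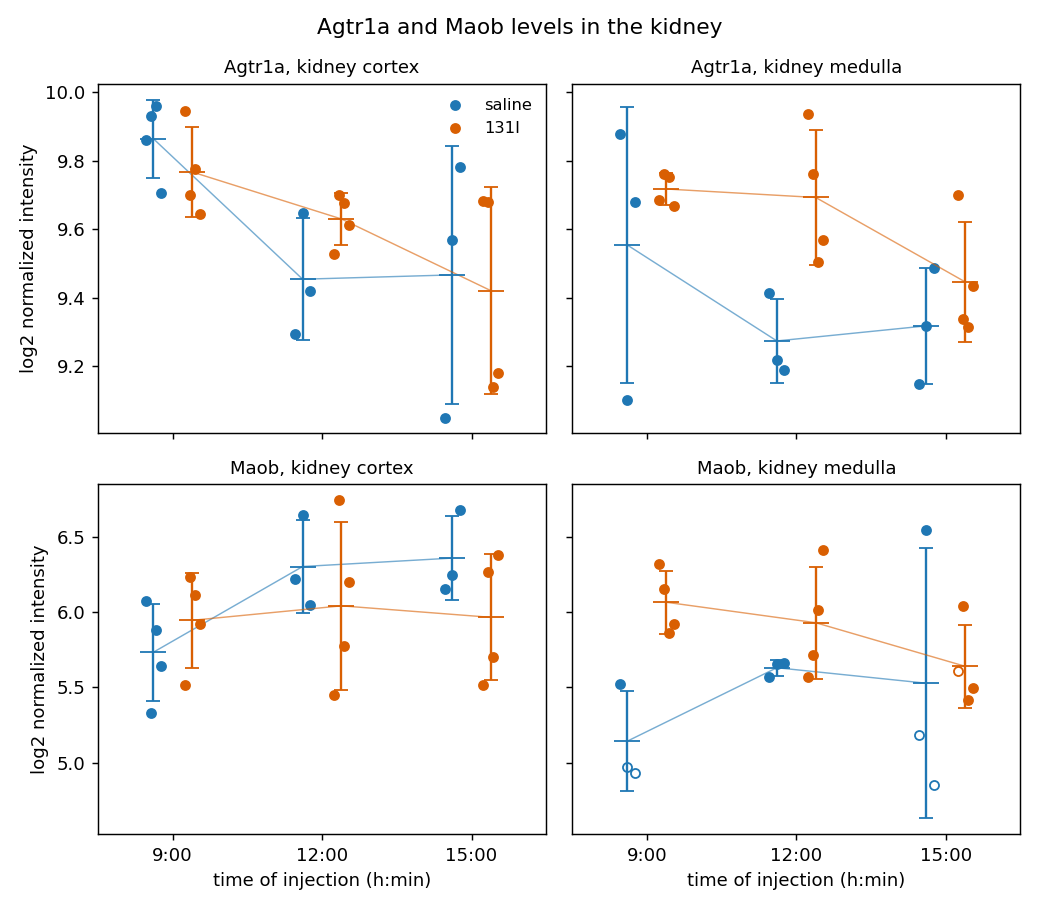
Log2 level of Agtr1a and Maob (y axis, background-corrected intensity normalized within each tissue) against clock time (x axis, h) in kidney cortex and medulla, with 1 point per mouse, open where the probe was not above background, and the group means with their SD joined by lines. Agtr1a in medulla at 12:00 lies between 9.50 and 9.94 with 131I and between 9.19 and 9.41 with saline.

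In the cortex the difference between 131I and saline was not called for Agtr1a, Ddc or Maob at any time. In 12 tests of these 3 probes by limma 0 had an unadjusted p under 0.05, and the smallest adjusted p was 0.599. Averaged over the times, the difference was 0.01 for Agtr1a (95% confidence interval -0.17 to 0.19) and -0.15 for Maob (-0.47 to 0.18). Among all 12776 probes, cortex had 0 calls at 9:00, 18 (0.141%) at 12:00 and 0 at 15:00, while 495, 1226 and 860 probes had an unadjusted p under 0.05. In the medulla 0 of 16 tests passed, the second Ace probe included, and 6 had an unadjusted p under 0.05. There, 0 of all probes were called at 9:00 and at 15:00 (2423 and 774 at an unadjusted p under 0.05) and 370 (2.79%) for the mean of the times.

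The medulla samples of 131I and saline mice also differed in markers of other cells of the kidney. Of 18 papilla and urothelium markers tested, 12 fell with 131I at 12:00, with a median difference of -2.40, where 2.28% of all probes were called lower and 1.97% higher. Their mean level ranged from 6.37 to 7.07 in the 131I samples and from 8.80 to 9.25 in the saline samples of 12:00. At 9:00 the median was -1.26 and at 15:00 it was -0.49, with 0 called by limma (10 and 2 at an unadjusted p under 0.05). Of 16 proximal tubule markers tested, 3 rose at 12:00, with a median of 0.64. Their mean level was 11.0 to 11.2 with 131I and 10.2 to 10.6 with saline at 12:00. The part of these shifts in the medulla values of Agtr1a, Maob and the pathway genes was not tested.

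**Figure D3:**
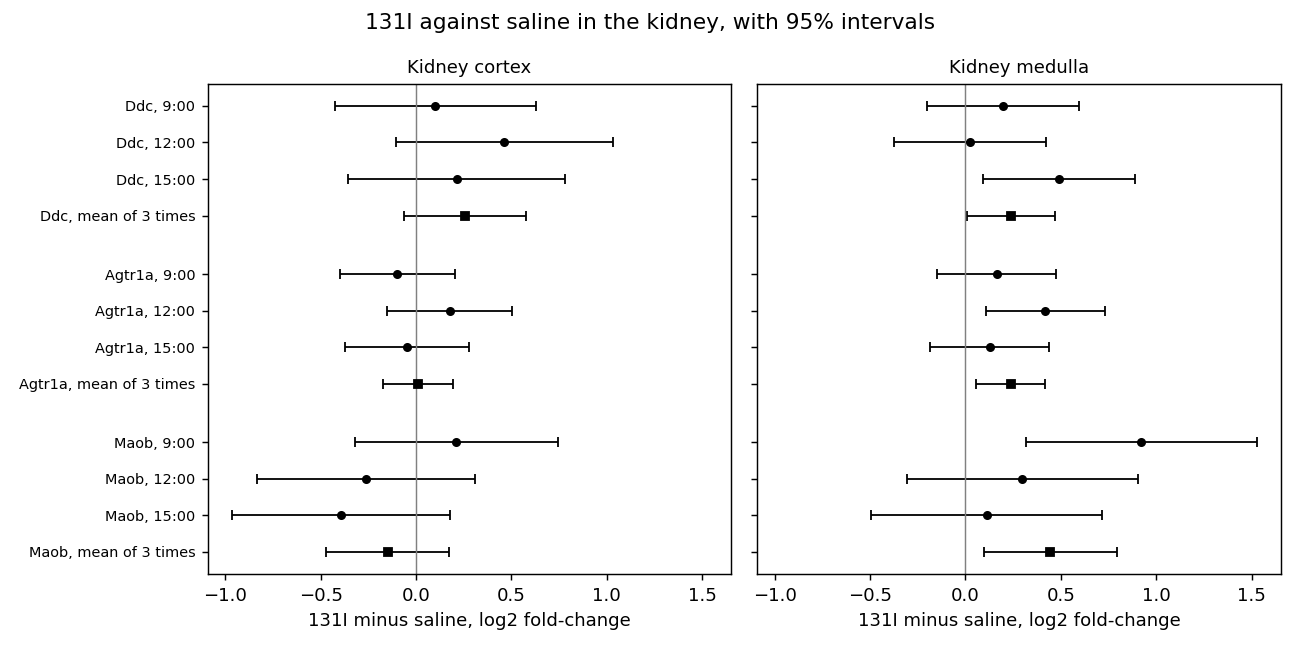
Log2 difference between 131I and saline (x axis) with its 95% confidence interval for Ddc, Agtr1a and Maob (rows), at each of the 3 times (circles) and for their mean (squares), in kidney cortex and medulla. No interval belongs to a called difference, and that of Maob in medulla at 9:00 runs from 0.32 to 1.53.

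Other genes of both systems were taken from lists. Of 26 further genes of the renin-angiotensin-aldosterone system, 21 were on the array and 16 could be tested in cortex and in medulla. Levels of different probes are not comparable and are given only to show what was measured. In saline cortex this list held Atp6ap2, the prorenin receptor (12.37 ± 0.19, SD, n = 10), the kinase gene Sgk1 (11.38 ± 0.70), the sodium channel subunit Scnn1g (10.26 ± 0.28), the receptor-associated protein Agtrap (10.03 ± 0.18) and Scnn1b (9.40 ± 0.37). In saline medulla Sgk1 was at 12.53 ± 0.34, Atp6ap2 at 12.37 ± 0.12, Agtrap at 10.25 ± 0.21, the neutral endopeptidase gene Mme at 9.62 ± 0.41 and Scnn1g at 9.58 ± 0.25 (SD, n = 9). The angiotensin receptors Agtr2, Agtr1b and Mas1 and the peptidases Cma1 and Ctsg were at background on every array of both kidney parts.

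Of 31 further dopamine genes, 24 were on the array, and 14 could be tested in cortex and 13 in medulla. In saline cortex it held the aldehyde dehydrogenase Aldh2 (13.34 ± 0.16, SD, n = 10), the amino acid transporter subunit Slc7a9 (12.03 ± 0.35), Pts (10.88 ± 0.14) and Qdpr (10.75 ± 0.14) of tetrahydrobiopterin metabolism, and Aldh1a1 (9.53 ± 0.33). In saline medulla Aldh2 was at 13.02 ± 0.15, Slc7a9 at 11.57 ± 0.45, Pts at 11.06 ± 0.19, Qdpr at 10.10 ± 0.28 and the sulfotransferase Sult1a1 at 9.54 ± 0.34 (SD, n = 9). Tyrosine hydroxylase Th, dopamine beta-hydroxylase Dbh, the transporters Slc6a2, Slc6a3 and Slc18a2 and the dopamine receptors Drd1, Drd3 and Drd5 were at background on every array of both kidney parts. The vesicular transporter Slc18a1 was above background on 6 of 22 cortex and 8 of 23 medulla arrays, Pnmt on 3 and 2, and the receptors Drd2 and Drd4 on 1 cortex array each and on 0 in medulla.

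None of these genes was called between times in the kidney. By limma, 0 of 48 tests of the renin-angiotensin list passed in saline cortex and 0 of 48 in 131I cortex, with 6 and 8 at an unadjusted p under 0.05. For the dopamine list it was 0 of 42 in each, with 12 and 5. In medulla the numbers were 0 of 48 in each for the first list (5 and 10 at an unadjusted p under 0.05) and 0 of 39 in each for the second (9 and 8). Between times, at most 0.196% of all probes were called in cortex and at most 0.159% in medulla. An absence of calls therefore says little about lists of this size. Of all 12776 probes tested in cortex, 1267 to 2176 had an unadjusted p under 0.05 in saline and 676 to 1913 in 131I mice. Of 13247 in medulla it was 1209 to 1371 and 1124 to 1549. Between 131I and saline, 0 of 64 and 0 of 56 tests passed in cortex, where at most 0.141% of all probes were called. The unadjusted p was under 0.05 in 3 and 7 of these tests, and for 495 to 1269 of all 12776 probes by comparison.

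In the medulla, by contrast, genes of both lists were called with 131I. At 12:00, 2 of 16 renin-angiotensin genes were called, 1 in each direction, with a list median of 0.48 against -0.02 over all probes, of which 4.25% were called and 23.4% had groups that do not overlap. Enpep, which encodes the aminopeptidase that turns angiotensin II into angiotensin III, was at 7.54, 7.70, 8.27 and 8.34 with 131I and at 6.08, 6.23 and 7.02 with saline. The groups were apart, and Enpep rose by 1.52 (SE 0.33, adjusted p = 0.00536). Sgk1, an aldosterone-induced kinase that keeps sodium channels at the membrane, was at 11.13, 11.23, 11.42 and 11.72 with 131I and at 12.39, 12.84 and 13.00 with saline. It fell by 1.37 (SE 0.31, adjusted p = 0.00695). At the other times neither gene was called, with differences at 9:00 and 15:00 of 0.32 and -0.23 for Enpep and of -1.23 and -0.42 for Sgk1.

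Of 13 dopamine genes, 3 rose at 12:00 in the medulla and 0 fell, with a list median of 0.26, where 1.97% of all probes were called higher and 2.28% lower. Slc3a2, the heavy chain of the transporters that carry L-DOPA and other large amino acids, was at 9.05, 9.12, 9.31 and 9.44 with 131I and at 7.40, 7.42 and 8.36 with saline. It rose by 1.501 (SE 0.27, adjusted p = 0.00167). Qdpr, which regenerates the cofactor of tyrosine hydroxylase, rose by 0.73 (adjusted p = 0.00510), from 9.74 to 10.07 with saline to 10.39 to 11.04 with 131I. Slc7a9, a transporter subunit of the proximal tubule, rose by 0.80 (adjusted p = 0.00889), from 11.23 to 11.41 with saline to 11.91 to 12.27 with 131I. All of these groups were apart at 12:00, as were those of 23.4% of all probes. At 9:00 the differences were 0.15 for Slc3a2, 0.70 for Qdpr and 0.52 for Slc7a9, and at 15:00 they were 0.11, 0.15 and -0.01, none of them called.

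Averaged over the 3 times, Sgk1 fell by 1.003 in 131I medulla (adjusted p = 0.00111). The sodium channel subunit Scnn1b rose by 0.59 (adjusted p = 0.00159), and Slc22a2, an organic cation transporter of the proximal tubule that also carries dopamine, rose by 0.62 (adjusted p = 0.00641). For this mean 2.79% of all probes were called. Scnn1b was at 9.02 to 9.32 with 131I and 8.09 to 8.61 with saline at 9:00. Groups that do not overlap were found for 16.2% of all probes at 9:00. Scnn1b was at 8.83 to 9.17 and 7.77 to 8.91 at 12:00, and at 8.58 to 8.88 and 8.17 to 8.66 at 15:00. At 12:00 and 15:00 the groups overlapped.

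Levels between tissues were compared on a scale normalized over all tissues together, as a description without a test. Ddc in saline mice was at 10.04 ± 0.59 in liver (SD, n = 10), 9.49 ± 0.57 in medulla (n = 9) and 9.43 ± 0.88 in cortex (n = 10), and the ranges of these 3 tissues overlapped. In lung it was lower, at 6.47 ± 0.73 (n = 10), or 6.29 ± 0.50 without the library with kidney genes, in which it was at 8.07. It was above background on all 22 lung arrays. In spleen it was above background on 2 of 23 arrays, 1 of them the library with kidney genes, where it was at 9.58 against 4.40 to 6.33 in the others. In the tissue labelled thyroid it was above background on 0 of 23 arrays. The spread of Ddc within cortex included its difference between times.

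Agtr1a was highest in liver, at 10.58 ± 0.23 (SD, n = 10). It was at 9.57 ± 0.29 in cortex and 9.13 ± 0.27 in medulla, and these 2 ranges overlapped each other and not that of liver. In spleen it was at 7.88 ± 0.78 and in lung at 7.27 ± 0.47 (7.14 ± 0.25 without the library with kidney genes). In samples labelled thyroid it was at 6.97 ± 0.53, and the ranges of spleen, lung and these samples overlapped. Maob had another order, with 10.96 ± 0.17 in liver, 9.73 ± 0.79 in samples labelled thyroid and 8.32 ± 0.48 in lung (8.42 ± 0.38 without that library). It was at 6.09 ± 0.40 in cortex, 5.28 ± 0.47 in medulla and 4.89 ± 0.28 in spleen. Of the spleen arrays 3 of 23 had it above background. Its highest spleen value, 5.64, was that of the library with kidney genes, against 4.39 to 5.31 in the others. The liver range was above all others, and neighbours below it overlapped except lung and cortex. Agt in liver was at 10.10 ± 0.25 and Maob probe ILMN_1258219 at 6.34 ± 0.42. Samples labelled thyroid had 8 of 10 follicular marker genes at background, and some carried salivary gland or muscle genes. Their values cannot be read as levels of the thyroid itself.

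**Figure D4:**
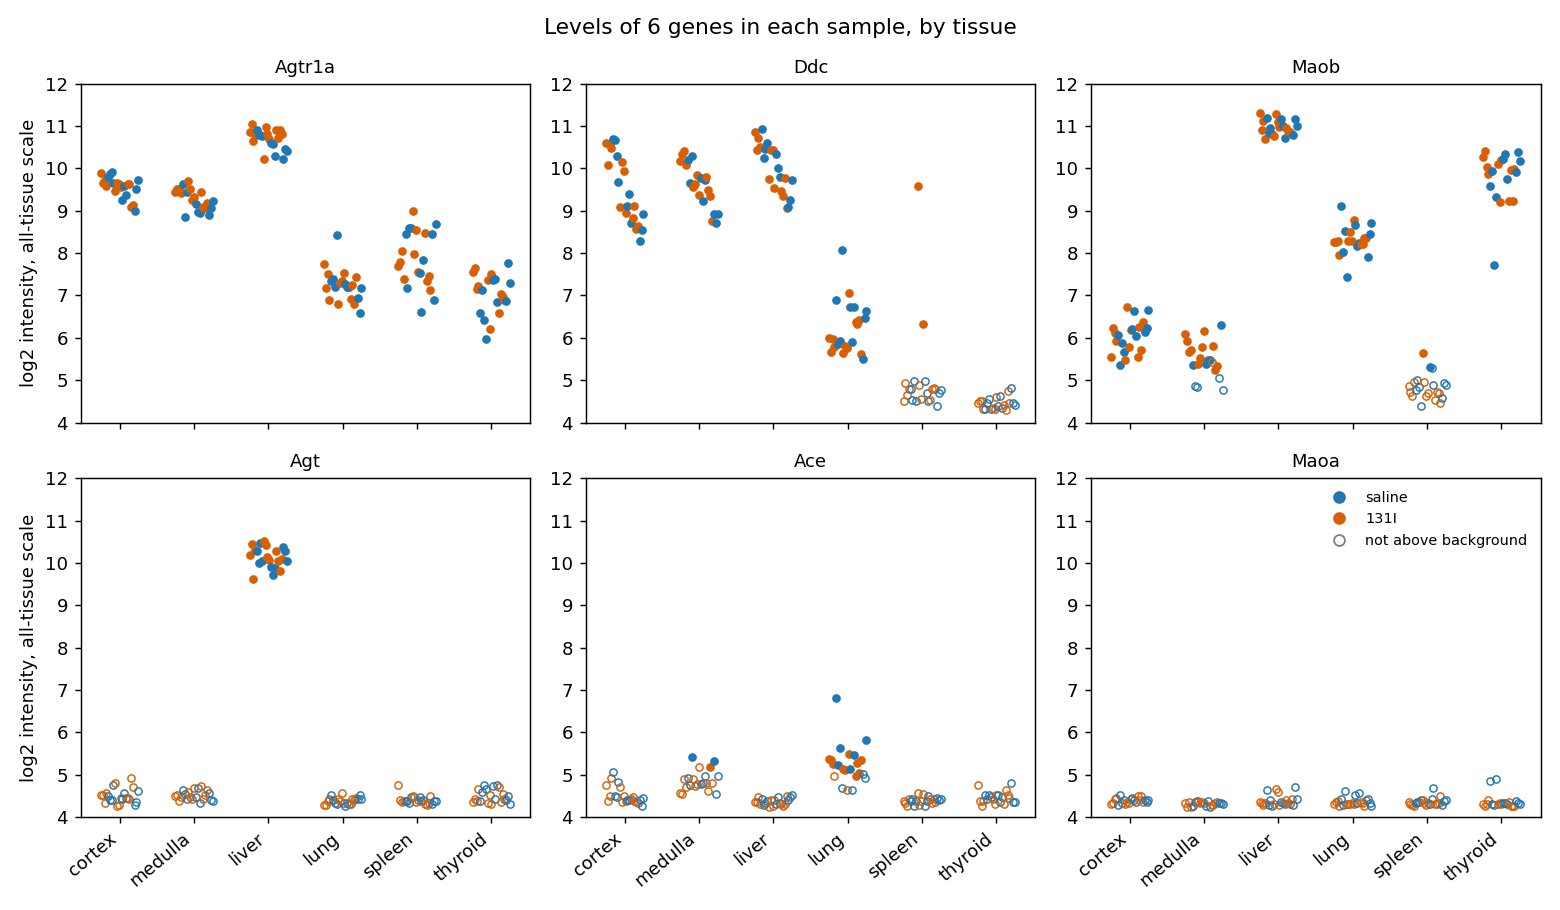
Log2 level of Agtr1a, Ddc, Maob, Agt, Ace and Maoa (y axis, normalized over all tissues together) in the 6 tissues (x axis), with 1 point per sample, filled where the probe was above background and open where it was not. Agt stands out in liver alone (10.10 ± 0.25 in saline mice), while Ddc is high in liver and in both parts of the kidney.

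In the liver Agtr1a, Agt and Maob were also measured, and none of them was called, while Maoa and both Ace probes were above background on 0 of 23 arrays. Agtr1a in saline mice was lower at 15:00 than at 9:00 in every sample, by 0.51 (SE 0.15, adjusted p = 0.0491). In that comparison 2.88% of all probes were called and 16.8% had groups that do not overlap. With 131I the difference of Agtr1a between these times was 0.00. At 15:00 Agtr1a was thus 0.53 higher in 131I than in saline livers (adjusted p = 0.122), in a comparison that called 0.0259% of all probes and had 12.1% with groups that do not overlap, and the interaction was not called (adjusted p = 0.392). Agt, the source of the whole angiotensin chain, was at 9.56 to 9.79 in saline livers of 12:00 and at 10.01 to 10.53 in 131I livers of that time. This difference of 0.55 was not called either (adjusted p = 0.147), where 1.45% of all probes were called and 13.9% had groups that do not overlap.

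In the samples labelled thyroid, Agtr1a and Maob differed at 9:00 beside large differences in admixed tissue. Agtr1a was at 6.72, 6.81, 6.33 and 6.40 with 131I and at 5.80, 6.29, 5.65 and 5.29 with saline, which is a difference of 0.81 (SE 0.26, adjusted p = 0.0288). It was 0.37 without background correction and 0.49 in the deposited normalized values. Maob was at 9.55, 9.75, 9.30 and 9.10 with 131I and at 8.79, 9.18, 6.87 and 8.51 with saline, a difference of 1.09 (SE 0.38, adjusted p = 0.0390). Neither was called, where 1495 probes (12.3%) were. The mean level of 20 salivary gland genes was 11.9 to 12.5 in these saline samples and 4.99 to 5.09 in the 131I samples. That of 15 skeletal muscle genes was 5.04 to 5.56 and 5.63 to 13.4. The part of these tissues in the values of Agtr1a and Maob was not tested.

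In lung and spleen, and for both Ace probes, Agt and Maob probe ILMN_1258219 wherever they were tested, no comparison was called. Of all probes, 0 of 14051 in lung and 0 of 13184 in spleen were called between 131I and saline. Between times at most 0.0854% and 0.00758% were, so that the absence of member calls in these tissues says little about the members. Over all 6 tissues, 0 of 88 tests between 131I and saline and 0 of 22 interaction tests on the member probes passed in limma, with 13 and 3 at an unadjusted p under 0.05. Depending on tissue and time, 0 to 12.3% of all probes were called between 131I and saline and 0 to 0.545% by the interaction. All calls on members between times, 3 of 66 in saline and 2 of 66 in 131I mice, were those on Ddc described above. Of all probes, 0 to 11.5% were called between times in saline mice and 0 to 0.873% in 131I mice.

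Over the 22 cortex samples, the probes most like Ddc by Pearson correlation were those of the collagen gene Col4a3 (r = 0.92), the anion channel subunit Lrrc8d (0.91) and Itgb6 (0.91). Over the 21 medulla samples these correlations were 0.51, 0.70 and 0.63, and over the liver samples -0.40, 0.77 and -0.16. The samples share the groups of the design, and each value is a description. The probes most like Agtr1a in cortex were those of Gcnt1 (0.88), Tmem38b (0.85) and Col4a3 (0.83), with 0.10, -0.59 and -0.01 in medulla. For Maob they were those of Cox7a1 (0.70), Lpin1 (0.69) and Slc25a20 (0.68), with -0.16, 0.37 and 0.02 in medulla. Ddc and Agtr1a correlated with each other at 0.77 in cortex, 0.58 in medulla and 0.47 in liver, and at 0.57, 0.45 and 0.52 after subtraction of the group means.

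Between tissues, Ddc in samples of the same group and number correlated at 0.88 between cortex and liver (n = 22), at 0.84 between medulla and liver (n = 21) and at 0.79 between cortex and medulla (n = 21). Once the group means were subtracted, the values were 0.58, 0.47 and 0.10. The labels do not say whether a number stands for the same mouse in different tissues.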

How the data were processed

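RNA of 6 tissues of mice given 131I or saline at 3 clock times was measured on Illumina MouseRef-8 arrays. The signal intensities deposited by the authors are bead averages without normalization. The detection p-values deposited with them compare each probe with the negative controls. The authors also deposited intensities normalized by quantiles over all arrays.

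The background was corrected by limma 3.58.1 in R 4.3.3 (nec, normexp from the detection p, offset 16). Arrays of one tissue were then quantile normalized together, and log2 values were used. Repeat arrays were averaged with their sample. A probe was tested where the detection p was under 0.01 on at least 3 arrays of the tissue. One limma fit (lmFit, eBayes with trend) per tissue held all 6 groups. Calls needed a fold-change of 1.5 or more together with a p under 0.01 after Benjamini-Hochberg adjustment, as in the study. The script was tested on simulated data. The number of arrays limits the precision.

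The members, lists and tests were chosen with earlier results of these data known. Genes named were the members, listed pathway genes that were called in the kidney or were among the first 5 of their list by saline level, and the 3 probes most correlated with each member in cortex. Others are named as partners in a count. Alternatives were other background corrections, scalings, filters, sample sets and a replicate block, and the fits without single samples.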

Additional observations from a re-analysis of the deposited data

Results flagged for a closer look

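Of 71 groups of 4 samples checked on the member probes, 6 held a sample whose gap to its nearest neighbour was large for the range of the group, where chance flags about 1 in 20 groups. In liver, Agtr1a in saline 9:00 replicate 1 was at 10.98, with the others at 10.81 to 10.82. In lung, Agtr1a in saline 9:00 replicate 4, the library with kidney genes, was at 8.84, and the next sample was at 7.86. Also in lung, Ddc was high in 131I 12:00 replicate 4 (7.53, next 6.28) and low in 131I 15:00 replicate 4 (6.08, next 6.82), and Maob was low in 131I 9:00 replicate 4 (8.39, next 8.67). In spleen, Agtr1a in saline 9:00 replicate 2 was at 7.33, with the next sample at 8.60.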

How the results depend on the processing

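No value changed its direction where it had been called. Counts of calls on the member probes over all 6 tissues were recomputed under each alternative. Between 131I and saline the count was 0, and it was 1 with repeat arrays counted as replicates (Maob in thyroid at 9:00, 1.38, adjusted p = 0.00998). Between times in saline mice it was 3, and 1 with only the 2 groups compared (Ddc in cortex, adjusted p = 0.0548, and in medulla, adjusted p = 0.0654, were lost) and 2 with median scaling. Leaving out single samples gave 0 to 1, 2 to 3 and, between times in 131I mice, 1 to 3 calls against 2. This was done in 88 fits that covered every sample of cortex, medulla, liver and lung and 1 spleen sample, and was not run for the others. The interaction gave 0 calls throughout. Leaving out the lung and spleen libraries with kidney genes, an alternative chosen after seeing the data, kept all these counts. With the replicate number as a block, 3 calls were made between times in 131I mice, the added one being Ddc in medulla (-0.89, adjusted p = 0.00414), and no other call on a member changed. Same-numbered 131I and saline samples of one tissue and time are different mice. Their deviations from the group means correlated at -0.63 to 0.45 over 59 pairs, with 19 over 0.1. These pairs cannot show whether a number stands for the same mouse in different tissues. The saline difference of Maob between cortex and medulla was 0.81, but 0.293 in the deposited normalized values and 0.294 without background correction. Between liver and cortex it was 4.87, against 3.69 in both. Median scaling moved the saline difference of Agtr1a between 15:00 and 9:00 in cortex from -0.40 to -0.67 and that of Ddc between 12:00 and 9:00 in liver from -0.58 to -0.30, and neither was called. Levels near background, as those of Maob in kidney and of Ace, limit what can be seen.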
